A study of Mus musculus with 10 samples.

Results

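The comparison described here sets 2 cultures that both received 4-hydroxytamoxifen (4OHT) against each other: 1 from the LSL-K4M line and 1 from the Mll3/4SET line, that is 2 of the 10 libraries of the series. The genotypes are LSL-K4M;CreER and Mll3f/f;Mll4SETf/f;CreER, and both lines are brown preadipocytes from the interscapular brown adipose tissue of newborn mice, made immortal with a retrovirus that carries SV40 large T antigen. Both carry CreER, a recombinase that is active in the presence of 4OHT, and both went through the same hormone cocktail for adipogenesis. By the design in its name (lox-stop-lox), the LSL-K4M line switches on H3.3K4M, a histone H3.3 with methionine in place of lysine 4, and by its name the Mll3/4SET line loses floxed parts of Mll3 and of the SET domain of Mll4. The mock cultures of both lines, with the same alleles and no 4OHT, gave 2 more libraries, which were used to show how the lines differed without the drug; the 6 ChIP-seq and input libraries were not analysed here. All 4 RNA libraries are labelled as mature adipocytes of day 7, although the titles of the 4OHT libraries say day 0, so that the stage is in doubt.

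Each culture is 1 library: differences have no replicate check, and p-values are not given. The line, its strain background and its genetic change cannot be told apart in these data, and a count over a whole transcript shows neither the deleted exons nor the transgene. Of 21809 gene names that are not X- or Y-linked, 11686 were at 1 RPKM or more in the higher of the 4OHT libraries and are called measured here; RPKM is the read count divided by transcript length and sequencing depth. Differences are log2((Mll3/4SET RPKM + 1)/(LSL-K4M RPKM + 1)), a scale that understates the difference of weakly expressed genes, and a gene is called lower or higher in Mll3/4SET at 2-fold or more on it. Folds beside named genes are ratios of RPKM, and the range after them is an exact 95% interval for counting error alone. Where 4 levels are given, they stand in the order LSL-K4M mock, LSL-K4M 4OHT, Mll3/4SET mock and Mll3/4SET 4OHT. The reads in that order, summed over 1 transcript per name and without X- and Y-linked names, were 14820766, 16177314, 14990149 and 14819673. Shares of reads given below are shares of these sums, not of whole libraries. The values of each line were scaled in a table of its own, so levels set across lines rest on 2 separate scalings. The median difference of all measured genes was -0.02 with 4OHT and -0.0048 in mock.

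MLL3 and MLL4 are the main enzymes that place a single methyl group on lysine 4 of histone H3 at enhancers, and both act on enhancers that fat cells use. The SET domain is the catalytic part of MLL4, and a lysine-to-methionine histone carries no lysine to be methylated at that position. In adipogenesis the factors C/EBPβ and C/EBPδ act early and switch on PPARγ and C/EBPα, which then turn on the genes for fatty acid uptake, lipid droplets and adipokines.

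With 4OHT, adipocyte and lipid genes were far lower in Mll3/4SET than in LSL-K4M, and genes of the amino acid response were higher. In all 661 measured genes (5.66%) were called, 465 lower (3.98%) and 196 higher (1.68%); lower genes made up 70.3% of the calls. The lower side also held the larger differences, with 100 genes at 4-fold or more and 38 at 8-fold or more, against 11 and 2 on the higher side. The genes called lower took 7.01% of the reads in LSL-K4M 4OHT and 1.88% in Mll3/4SET 4OHT. As they were picked by their difference between these libraries, a lower share follows from the choice. In the mock libraries these genes took 18.5% of the reads in LSL-K4M and 12.1% in Mll3/4SET.

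The lines already differed without 4OHT. Between the mock libraries, which share no library with the 4OHT comparison, 584 of 11648 genes (5.01%) were called, 376 lower in Mll3/4SET (3.23%) and 208 higher (1.79%). Of the 465 genes lower with 4OHT, 141 were also lower in mock, which is 30.3% of the 4OHT list and 37.5% of the mock list. Of the 196 higher genes, 51 were also higher in mock, 26.0% of the 4OHT list and 24.5% of the mock list. Among the 9956 genes whose mock libraries differed by less than 1.5-fold on the same scale, 214 were lower (2.15%) and 79 were higher (0.793%) with 4OHT. Across the 11206 genes measured in both comparisons Pearson's r between the differences was 0.58 and Spearman's rho 0.63, as a description of these 4 libraries.

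**Figure D1:**
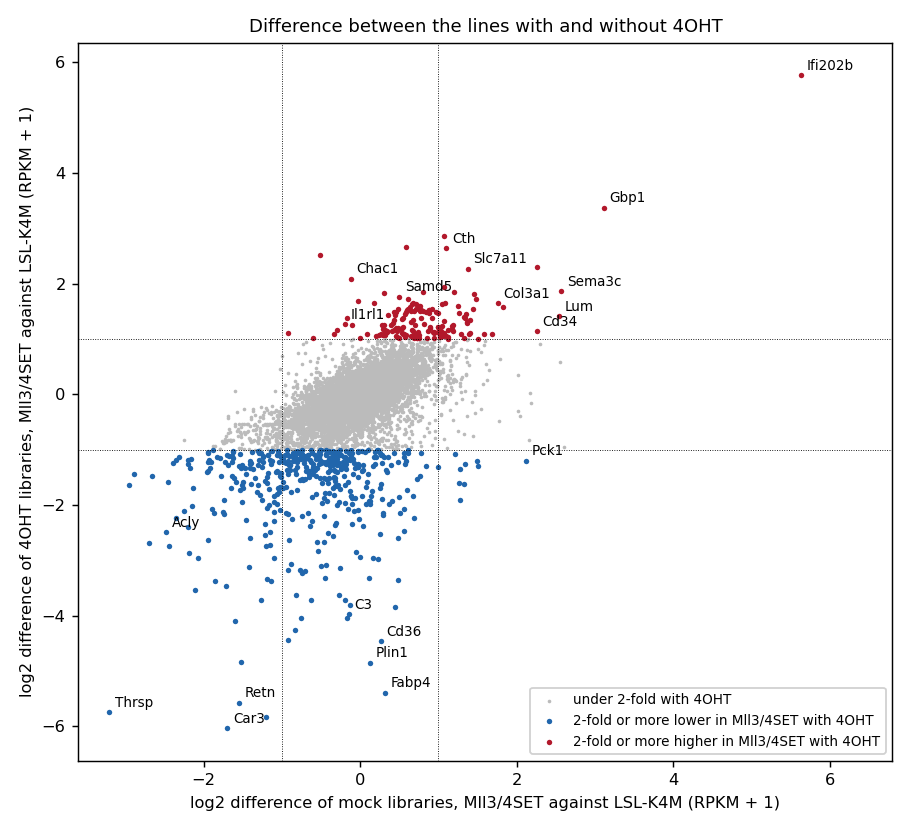
Each point is 1 of the 11206 genes measured in both comparisons. The x axis is the log2 difference between the mock libraries and the y axis that between the 4OHT libraries (Mll3/4SET against LSL-K4M, RPKM + 1), and dotted lines mark 2-fold; Fabp4, Plin1 and Cd36 lie low on the y axis near 0 on the x axis, while Ifi202b and Gbp1 lie high on both axes.

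The master regulators of fat cell formation were lower in Mll3/4SET 4OHT although the mock libraries had been alike. Cebpa, which encodes C/EBPα, was at 159.1, 51.4, 158.3 and 5.82 RPKM, so that the Mll3/4SET 4OHT library was 8.84-fold lower (7.89 to 9.93) than the LSL-K4M 4OHT library. Pparg, the gene of PPARγ, was at 133.8, 22.9, 100.3 and 3.23 RPKM, 7.09-fold lower (5.87 to 8.62). Both 4OHT libraries thus stood below both mock libraries, and the Mll3/4SET 4OHT library was the lowest. The early factor Cebpb stood at 88.1 and 86.2 RPKM in the 4OHT libraries, and Cebpd, also early, at 42.5 and 25.2 RPKM, 1.69-fold apart (1.57 to 1.81) and under the 2-fold limit.

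Among 26 measured adipogenic transcription factors 5 were lower and none was higher, with a median difference of -0.19. Besides Cebpa and Pparg these were 3 regulators of lipid synthesis, Mlxipl (ChREBP), Srebf1 (SREBP1) and Nr1h3 (LXRα). Mlxipl stood at 59, 11.3, 15.5 and 0.19 RPKM, 59.8-fold lower (36.1 to 107.4), and had already been lower in mock, by -1.86 on the log2 scale. Srebf1 was 5.0-fold lower (4.74 to 5.28) with 4OHT and -0.87 in mock, and Nr1h3 was 8.29-fold lower (5.47 to 13.1) and -1.11 in mock. Zbtb16 (PLZF) stood at 3.00, 1.00, 2.81 and 0.0812 RPKM, 12.4-fold apart by RPKM (6.29 to 27.7) but under the limit on the log scale.

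Adipocyte markers made up the list that stood lowest. Of 33 listed markers 29 were measured with 4OHT, 24 of them were lower and none was higher, and their median difference was -3.32; in mock 6 of 32 were lower and 2 higher, with a median of -0.18. The Mll3/4SET 4OHT library was the lowest of the 4 libraries for 28 of the 29. Summed over the list, the levels were 11266, 3089, 11016 and 258.1 RPKM. Set against each line's own mock library, the median marker stood at 24.8% in LSL-K4M 4OHT and at 1.42% in Mll3/4SET 4OHT. In bulk RNA, fewer fat cells in a culture and less of these transcripts per cell cannot be told apart.

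**Figure D2:**
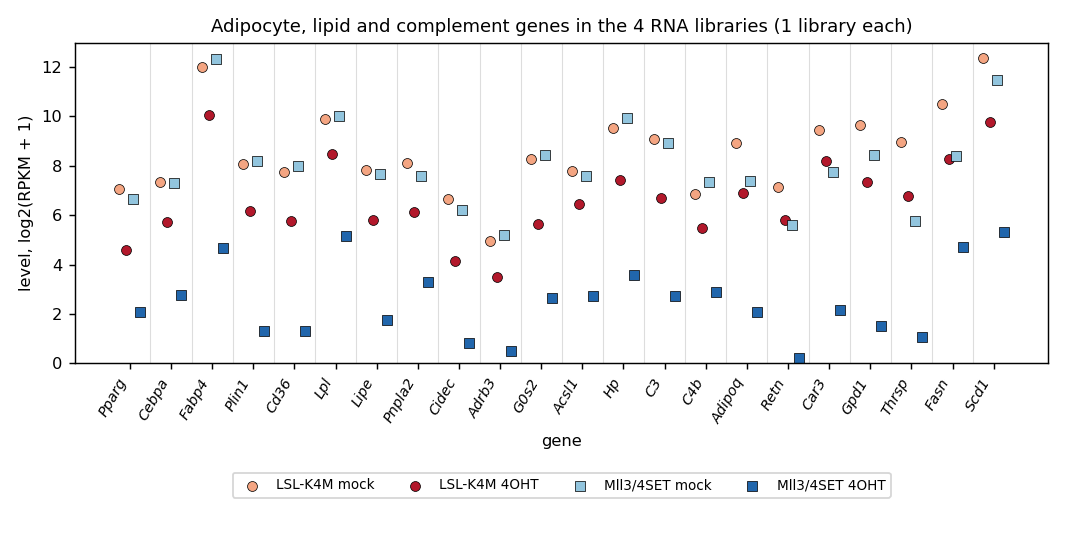
The y axis is the level as log2(RPKM + 1) in each of the 4 RNA libraries for adipocyte, lipid and complement genes named along the x axis, 1 point per library with no replicates. For each gene the dark blue squares of Mll3/4SET 4OHT are lowest, and the dark red circles of LSL-K4M 4OHT lie between them and the mock libraries for most genes.

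Fatty acid uptake and storage genes carried much of this difference, in several cases with like mock levels. Fabp4, a carrier of fatty acids in fat cells, was at 4099, 1066, 5119 and 24.3 RPKM, 43.8-fold lower (39.3 to 48.9). Plin1, which coats the lipid droplet, was at 268.7, 70.7, 293.1 and 1.49 RPKM, 47.5-fold lower (36.8 to 62.4). Cd36, a fatty acid transporter of the cell surface, was at 211.3, 53.8, 254.3 and 1.48 RPKM, 36.2-fold lower (30.01 to 44.2). For all 3 genes the Mll3/4SET line had the higher mock library and the lower 4OHT library. Lpl, the lipase that frees fatty acids from lipoproteins, was 10.3-fold lower (9.88 to 10.7), at 351.8 and 34.3 RPKM with 4OHT, and Cidec, which helps lipid droplets to fuse, was 21.5-fold lower (14.8 to 32.3). Adig, an adipocyte gene, had 176 reads in LSL-K4M 4OHT and 0 in Mll3/4SET 4OHT; with the latter set to a floor of 3 reads it was at least 55.3-fold lower.

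Other adipocyte genes were lower with 4OHT on top of a lower mock level. Adipoq, the gene of the hormone adiponectin, stood at 482.6, 119.2, 167.1 and 3.22 RPKM, 37.0-fold lower (29.9 to 46.4), and its mock difference was -1.52. Car3, a carbonic anhydrase abundant in fat, was at 695.9, 292.0, 214.1 and 3.47 RPKM, 84.2-fold lower (70.0 to 102.1). Gpd1, which makes the glycerol backbone of triglycerides, was 86.8-fold lower (72.1 to 105.5), at 161.0 and 1.86 RPKM. The mock differences of Car3 and Gpd1 were -1.70 and -1.20. Retn, which encodes the adipokine resistin, had 726 and 2 reads with 4OHT, which gives a ratio of 341.9 (interval 94.3 to 2828.8). In these genes the Mll3/4SET line was thus the lower one in both pairs of libraries.

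Lipolysis and beta-adrenergic genes were lower with 4OHT. Of 13 measured members 9 were lower with 4OHT (median -2.52), while none of 15 was called in either direction in mock (median -0.16). The 4OHT median was -1.32 with no minimum level and also with names of 1 row alone. Lipe, hormone-sensitive lipase, was at 224.7, 54.5, 200.3 and 2.36 RPKM, 23.1-fold lower (19.6 to 27.6). Pnpla2, the lipase that takes the first fatty acid off triglycerides, was 7.83-fold lower (7.13 to 8.60). G0s2, an inhibitor of that lipase, was also lower, 9.10-fold (7.38 to 11.3). Adrb3, the beta-3 adrenergic receptor of fat cells, was at 29.9, 10.2, 35.1 and 0.429 RPKM, 23.9-fold lower (16.1 to 36.8), so that receptor, lipases and inhibitor stood lower together.

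Fatty acid and triglyceride synthesis genes were lower in 14 of 23 cases with 4OHT (median -1.30) and in 9 of 25 cases in mock (median -0.70), with none higher with 4OHT and 1 higher in mock. Scd1, which puts the first double bond into fatty acids, was at 5306, 867.1, 2801 and 38.8 RPKM, 22.4-fold lower (21.7 to 23.1). Fasn, fatty acid synthase, was at 1440, 308.1, 333.5 and 25.5 RPKM, 12.1-fold lower (11.8 to 12.4), with a mock difference of -2.11. Acly, which supplies acetyl-CoA for that enzyme, was at 871.3, 199.8, 155.3 and 34.7 RPKM. Its log2 differences were -2.49 with 4OHT and -2.48 in mock, so Acly stood apart between the lines by the same amount in both pairs. Thrsp, a regulator of lipid synthesis, was 102.9-fold lower (69.0 to 160.8) with 4OHT on a mock difference of -3.21. When genes whose mock libraries differed by 1.5-fold or more were left out, the median of this list was -0.34 instead of -1.30.

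Secreted proteins of complement and the acute phase were lower with 4OHT in 10 of 18 measured members (median -1.15), and none of 20 was called in mock (median 0.15). The 4OHT median was -2.24 with a minimum of 5 RPKM. The Mll3/4SET 4OHT library was the lowest of the 4 for 16 of the 18. C3, the central complement protein, was at 539.9, 103.8, 489.5 and 5.64 RPKM, 18.4-fold lower (17 to 19.95). Hp (haptoglobin, which binds free haemoglobin) was 15.7-fold lower (14.0 to 17.6), at 168.5 and 10.8 RPKM, and C4b, another complement component, was 6.86-fold lower (6.35 to 7.42). Cfd, the adipokine adipsin, was at 400.1, 40.1, 224.1 and 1.15 RPKM, 34.9-fold lower (23.1 to 55.3). Saa3, an acute-phase gene, was at 1204, 1329, 1779 and 601.8 RPKM, so that its LSL-K4M 4OHT level stood above its mock level. Fat cells are themselves a source of several of these proteins; Cfd and Hp were also counted among the adipocyte markers.

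**Figure D3:**
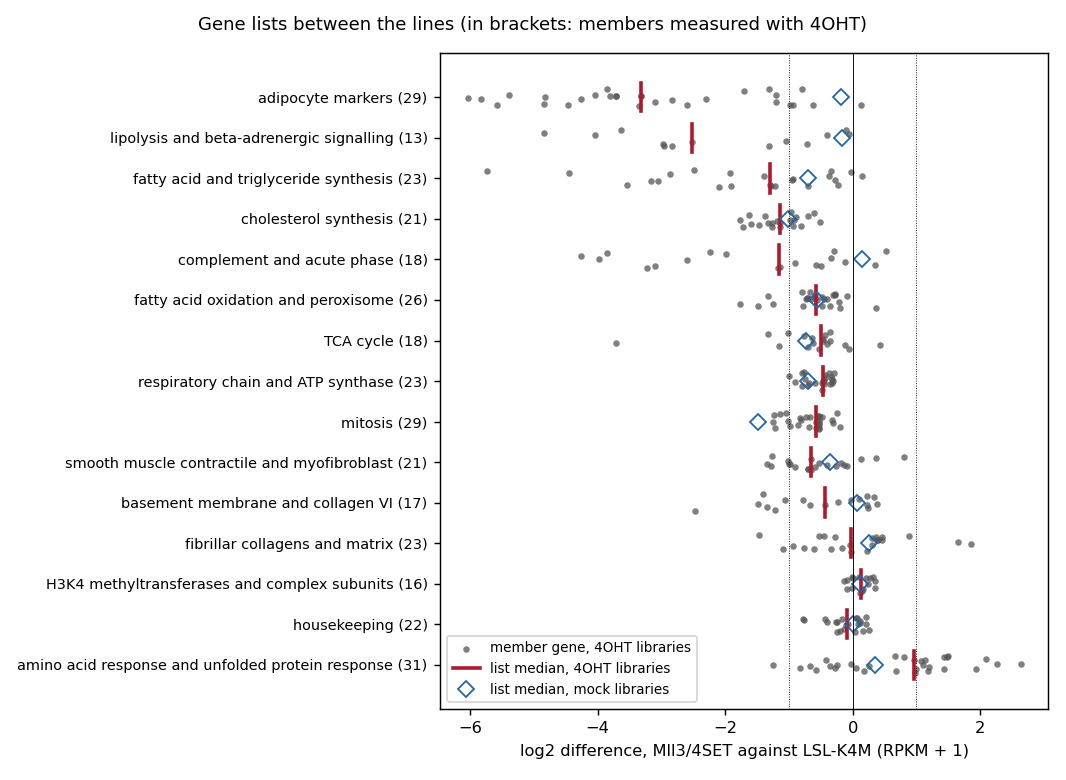
Each grey point is a member gene of the list named on the y axis, at its log2 difference between the 4OHT libraries (Mll3/4SET against LSL-K4M, RPKM + 1); the red bar is the list's 4OHT median and the open diamond its mock median. The adipocyte markers (medians -3.32 and -0.18) and lipolysis genes (-2.52 and -0.16) stand apart from their diamonds, while those of fatty acid oxidation (-0.57 and -0.56) lie on each other and mitosis (-0.57 and -1.49) stands further from 0 in mock.

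Mitochondrial fuel lists had medians below 0 in both pairs of libraries. Over all measured genes 3.98% were lower with 4OHT and 3.23% in mock. Of 26 fatty acid oxidation genes 4 were lower with 4OHT (median -0.57) and 3 in mock (median -0.56). Acadm, which oxidises medium-chain fatty acids, was at 96.9, 24.0, 65.0 and 9.0 RPKM, 2.67-fold lower (2.37 to 3.02) with 4OHT. Of 23 respiratory chain and ATP synthase genes none was called with 4OHT, yet all 23 lay below 0 (median -0.47); in mock 2 of 24 were lower (median -0.69). Of 18 TCA cycle genes 4 were lower with 4OHT (median -0.50) and 2 in mock (median -0.73). Pcx, pyruvate carboxylase, which feeds the cycle and lipid synthesis, stood out at 475.6, 120.9, 196.5 and 8.29 RPKM, 14.6-fold lower (13.5 to 15.7).

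The cells are labelled as brown, and the markers that define brown fat were weak with 4OHT. Of 6 brown markers, 6 reached 1 RPKM in LSL-K4M mock and 5 in Mll3/4SET mock, against 3 and 2 with 4OHT. Ucp1, which lets brown fat mitochondria release heat, was at 3.58, 0.0793, 1.45 and 0.0561 RPKM, with 3 and 2 reads in the 4OHT libraries. Cidea, another brown fat marker, had 8 reads and 1 read there, which gives a ratio of 7.54 (interval 1.01 to 334.4). Over the 6 brown markers the summed levels were 82.7, 13.1, 87.7 and 3.96 RPKM. In all libraries but Mll3/4SET 4OHT, most of that sum came from Cox7a1 alone. Cox7a1, a respiratory chain subunit of brown fat and muscle, stood at 50.9, 9.50, 68.0 and 1.76 RPKM, 5.38-fold lower (3.03 to 10.3), and Ppargc1a (PGC-1α), which turns on mitochondrial genes, was at 0.948 and 0.143 RPKM with 4OHT. Prdm16, which promotes brown fat identity, was at 1.12 and 1.32 RPKM. Of 24 thermogenic genes 13 were measured with 4OHT and 2 were lower, Kcnk3 and Cox7a1; 3 of 20 were lower in mock.

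Cholesterol synthesis genes were lower in Mll3/4SET in both pairs of libraries. With 4OHT 12 of 21 were lower and all 21 lay below 0 (median -1.14), and in mock 11 of 21 were lower (median -1.01). Insig1, a sterol sensor, was at 102.7, 37.6, 49.5 and 10.4 RPKM, 3.62-fold lower (3.31 to 3.97) with 4OHT. Idi1, an enzyme of the isoprenoid steps, was at 30.3, 31.3, 13 and 8.83 RPKM, 3.55-fold lower (3.23 to 3.91). For 11 of the 21 genes the LSL-K4M 4OHT library was the highest of the 4. Only 1 of the 12 lower genes had mock libraries within 1.5-fold. Genes of cholesterol efflux and apolipoproteins were lower in 7 of 14 cases with 4OHT (median -1.0) and in 2 of 14 in mock (median -0.33), and the 4OHT median was -0.64 for names with 1 row; Apoc1, an apolipoprotein of fat and liver, had 128 and 0 reads, at least 40.2-fold lower at the floor of 3 reads.

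Among the lists, the amino acid response had the most higher members. Cells short of amino acids or with unfolded protein in the endoplasmic reticulum make more of the factor ATF4, which turns on genes for amino acid import, serine and glycine synthesis and glutathione supply. Of 31 measured genes of the amino acid and unfolded protein response 13 were higher in Mll3/4SET with 4OHT and 1 was lower (median 0.97); in mock 3 of 31 were higher and none was lower (median 0.35). For 20 of the 31 genes the LSL-K4M 4OHT library was the lowest of the 4, and for 10 the Mll3/4SET 4OHT library was the highest. The members higher with 4OHT included genes of import and of synthesis, and 8 of the 13 had mock libraries within 1.5-fold.

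In the promoters of these genes a script looked for the composite site that C/EBP and ATF factors bind, spelled TGATGNAA, on both strands. The windows came from RefSeq (assembly GRCm38.p6) and ran from 250 bases before to 50 bases after each gene's start. Of 28 list members with a window 7 held the letters (25.0%), against 1219 of 27025 genes with a window (4.51%). Among the 13 higher members, 11 had a window and 6 held the letters; among the other 18 members, 17 had a window and 1 did, Herpud1. The stretches of these 6 higher members are shown because they hold the letters, and not by the size of their difference. Each is read along the gene, with the matching letters, or their reverse complement, in capitals and 20 bases on either side. They lie at chr2:119351029-119351076 on the plus strand (Chac1), chr3:50443633-50443699 on the minus strand (Slc7a11), chr1:191183416-191183463 on the minus strand (Atf3), chr19:27216800-27216847 on the plus strand (Vldlr), chr2:152344019-152344066 on the minus strand (Trib3) and chr6:7693205-7693252 on the minus strand (Asns). The list joins genes of the amino acid response with genes of the unfolded protein response, picked by their known roles. List and motif were chosen with earlier results of these data known, so an excess over all genes can follow from that choice. The split into higher and other members can likewise follow from the mix of responses in the list. Neither contrast was tested. A match in these letters is a description of the sequence and shows no binding.
Chac1: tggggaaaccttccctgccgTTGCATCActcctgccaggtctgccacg
Slc7a11: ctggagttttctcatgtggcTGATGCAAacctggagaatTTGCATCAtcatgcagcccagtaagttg
Atf3: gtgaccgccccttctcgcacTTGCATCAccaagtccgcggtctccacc
Vldlr: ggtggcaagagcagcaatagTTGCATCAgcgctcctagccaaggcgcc
Trib3: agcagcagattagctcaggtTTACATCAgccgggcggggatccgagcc
Asns: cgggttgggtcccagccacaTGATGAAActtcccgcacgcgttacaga

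Cth, Slc7a11 and Chac1 had the largest differences of the list. Cth, which makes cysteine from cystathionine, was at 14.1, 7.07, 31.5 and 49.3 RPKM, 6.97-fold higher (6.16 to 7.91) in Mll3/4SET with 4OHT, with a mock difference of 1.10. Slc7a11, the cystine importer, whose window holds 2 matches facing opposite ways, was at 6.99, 2.24, 19.7 and 14.6 RPKM, 6.52-fold higher (5.92 to 7.20). Chac1, which breaks down glutathione, was at 29.9, 7.92, 27.5 and 36.9 RPKM, 4.66-fold higher (4.10 to 5.32). Its mock levels were alike, with a difference of -0.12, and its 4OHT levels lay on either side of them.

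Import and synthesis genes were higher as well. Slc7a5, which brings in large neutral amino acids, was at 37.8, 32.1, 80.5 and 125.3 RPKM, 3.90-fold higher (3.74 to 4.08). Phgdh, the first enzyme of serine synthesis, was at 27.7, 26.6, 35.7 and 73.2 RPKM, 2.75-fold higher (2.57 to 2.95). Shmt2, the mitochondrial enzyme that turns serine into glycine, was 2.77-fold higher (2.61 to 2.93). For Slc7a5, Phgdh and Shmt2 the Mll3/4SET 4OHT library was the highest of the 4. Asns, asparagine synthetase, was at 57.7, 45.7, 85.5 and 99.1 RPKM, 2.17-fold higher (2.05 to 2.29), and Psat1, another serine enzyme, was 2.22-fold higher (2.11 to 2.33).

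Trib3, a pseudokinase induced by ATF4, was at 71.4, 14.0, 102.5 and 33.0 RPKM, 2.36-fold higher (2.15 to 2.59) in the Mll3/4SET 4OHT library. Atf3, a factor of the stress response, was at 7.88, 2.77, 16.4 and 9.55 RPKM, 3.45-fold higher (2.82 to 4.24). Against the mock library of the same line, Trib3 stood at 19.6% in LSL-K4M and at 32.2% in Mll3/4SET; Atf3 stood at 35.2% and 58.2%. Atf4 itself was at 167.7, 91.7, 160.5 and 147.6 RPKM, 1.61-fold apart (1.54 to 1.68), and Ddit3 (CHOP) at 106.0, 56.4, 97.9 and 112.2 RPKM, 1.99-fold apart by RPKM (1.85 to 2.14) and just under the limit. Genes outside the list that ranked among the 15 highest included Stc2, a secreted glycoprotein, 3.72-fold higher (3.07 to 4.52), and Gadd45a, a stress-induced gene, 3.23-fold higher (2.97 to 3.52).

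**Figure D4:**
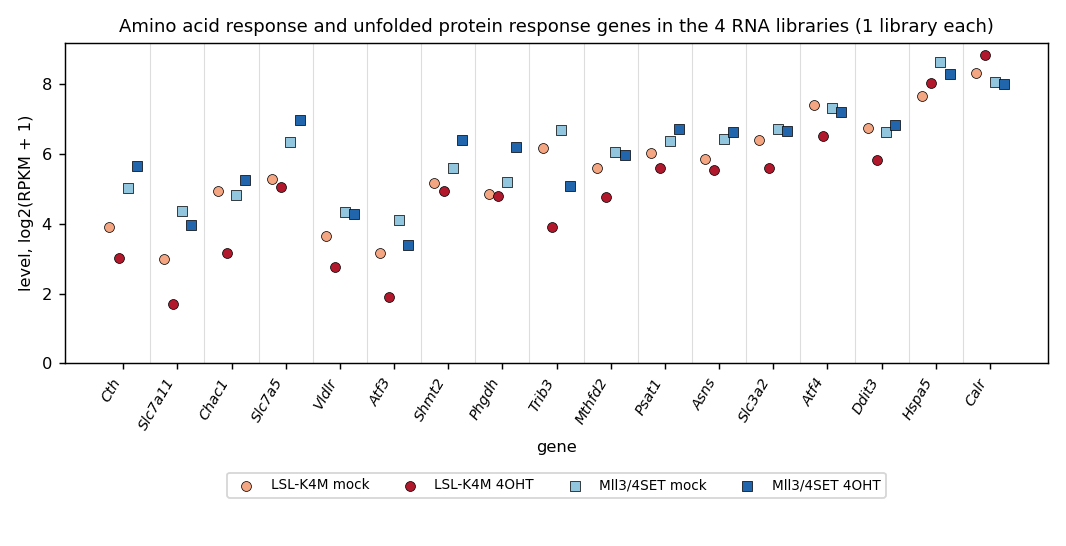
The y axis is the level as log2(RPKM + 1) in each of the 4 RNA libraries for amino acid and unfolded protein response genes named along the x axis, 1 point per library with no replicates. The dark red circle of LSL-K4M 4OHT is the lowest point for genes such as Cth, Slc7a11, Chac1, Trib3 and Atf4, and the dark blue square of Mll3/4SET 4OHT is the highest for Cth, Chac1, Slc7a5, Shmt2, Phgdh, Psat1, Asns and Ddit3.

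Basement membrane and collagen VI genes were lower in Mll3/4SET in 6 of 17 cases with 4OHT and none was higher (median -0.44), while none of 17 was called in mock (median 0.06); all 6 had mock libraries within 1.5-fold. A basement membrane surrounds every fat cell. Col15a1, a collagen of basement membranes, was at 121.7, 30.3, 179.8 and 4.66 RPKM, 6.50-fold lower (5.93 to 7.12). Col4a1, a chain of the main basement membrane collagen, stood at 205.8, 157.3, 178.6 and 55.8 RPKM, 2.82-fold lower (2.75 to 2.89), and Nid2, a linker protein, was 2.79-fold lower (2.62 to 2.97). Col6a1 stood at 290.6, 147.4, 391.3 and 70.4 RPKM, 2.09-fold lower (2.03 to 2.16), and its partner chain Col6a2 was 1.61-fold apart (1.55 to 1.67). Fibrillar collagens and other matrix genes split, with 2 lower and 2 higher of 23; their median of -0.02 was 0.04 under upper-quartile and 0.01 under TMM scaling. Elastic fibre genes also split, with 4 lower and 1 higher of 17. Of all measured genes, 3.98% were lower and 1.68% were higher. Eln (elastin) stood at 5.01, 24.5, 4.61 and 5.94 RPKM, 4.12-fold lower (3.74 to 4.56), and Ltbp4, which anchors latent TGF-beta to the fibres, was at 2.22, 7.32, 4.40 and 24.1 RPKM, 3.29-fold higher (3.04 to 3.55).

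**Figure D5:**
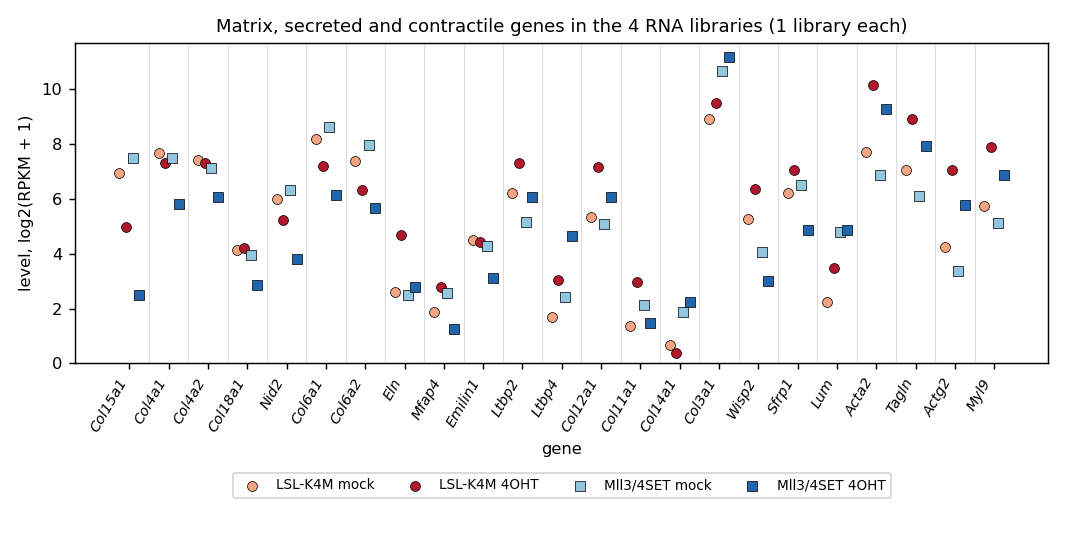
The y axis is the level as log2(RPKM + 1) in each of the 4 RNA libraries for matrix, secreted and contractile genes named along the x axis, 1 point per library with no replicates. Col15a1, Nid2 and Sfrp1 have their lowest point in Mll3/4SET 4OHT (dark blue), Eln its highest in LSL-K4M 4OHT (dark red), and Col3a1 lies higher in both Mll3/4SET libraries than in both LSL-K4M libraries.

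Contractile genes stood higher with 4OHT than in mock in both lines, and highest in LSL-K4M. For 20 of 21 measured genes of smooth muscle and myofibroblasts both 4OHT libraries lay above their own mock libraries, and for 18 the LSL-K4M 4OHT library was the highest of the 4. Between the 4OHT libraries 4 were lower in Mll3/4SET and none was higher (median -0.65), and in mock none of 19 was called (median -0.35). The summed levels were 1411, 4503, 1217 and 3187 RPKM. Acta2, smooth muscle actin, was at 210.9, 1147, 115.4 and 615.4 RPKM, 1.86-fold apart (1.84 to 1.89), and its differences of -0.90 with 4OHT and -0.86 in mock were close. Myl9, a myosin light chain, was 2.02-fold lower (1.93 to 2.12), and the log2 difference of Myl9, -1.01, was under the limit with median-ratio scaling (-0.99), as well as with the other scalings tried.

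Several secreted factors were lower in Mll3/4SET 4OHT and rank among the larger differences outside the lipid genes. Ccn5, listed in the tables as Wisp2, a matricellular protein made by mesenchymal cells, was at 37.5, 81.0, 15.9 and 7.07 RPKM, 11.5-fold lower (10.1 to 13). Sfrp1, which binds and blocks Wnt ligands, was at 73.0, 132.1, 89.6 and 28.4 RPKM, 4.65-fold lower (4.46 to 4.85). In both genes the LSL-K4M 4OHT library was the highest of the 4. Igf1, a growth factor gene, stood at 28.2, 9.55, 40.5 and 1.39 RPKM, 6.87-fold lower (5.95 to 7.96), and Cxcl12, a chemokine of stromal cells, was 3.60-fold lower (3.44 to 3.78), at 192.8 and 53.5 RPKM. Igf2, the imprinted growth factor gene, was at 23.4, 260.8, 48.6 and 379.8 RPKM, 1.46-fold apart (1.43 to 1.48) with 4OHT. Progenitor markers split, with 3 lower and 1 higher of 17, against 3.98% and 1.68% of all measured genes. Ly6a (Sca-1) was 2.25-fold lower (2.11 to 2.40), and Cd34 was at 2.86, 3.83, 17.4 and 9.66 RPKM, 2.52-fold higher (2.15 to 2.97).

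Lists of metabolism and hormone response held fewer lower genes and no higher ones. With 4OHT 3.98% of all measured genes were lower and 1.68% were higher. Glycolysis and hypoxia genes had 3 lower of 24 with 4OHT (median -0.44), led by Pfkfb3, which makes an activator of glycolysis, and branched-chain amino acid breakdown had none of 17 (median -0.40). Insulin signalling had 3 lower of 18 (median -0.24, or -0.14 where mock libraries were within 1.5-fold), with Tbc1d4, which holds back the glucose transporter GLUT4, among them, and retinoid carriers and enzymes had 3 of 10 (median -0.36, or -0.16 with no minimum level), with Rbp4, a retinol carrier, 3.51-fold lower (2.17 to 5.91). Antioxidant enzymes had 4 lower of 28 (median -0.21), with Cat (catalase) among them. None of 23 genes of the circadian clock and glucocorticoid response was called (median -0.16).

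Other lists held genes of signalling, matrix turnover and cell growth. The shares over all measured genes with 4OHT were 3.98% lower and 1.68% higher, and some of the counts below lie near them. Wnt pathway genes had 3 lower of 19 (median -0.15), and TGF-beta and BMP genes 2 lower of 28, Id1 and Smad6, both targets of BMP signals; the median of the latter list, -0.01, was above 0 under all 3 other scalings (0.0037 to 0.04). Targets and factors of SRF, YAP and TEAD had 3 lower of 19, with Ctgf (CCN2) among them, and a median of -0.04 that was 0.01 under upper-quartile scaling. Insulin-like growth factor and imprinted genes had 4 lower and 1 higher of 24 (median 0.12, or -0.11 where mock libraries were within 1.5-fold), and 6 of 23 were higher in mock. Proteoglycans and hyaluronan genes had 3 lower and 2 higher of 12 (median 0.02), with 6 of 13 higher in mock. The 4OHT median of the proteoglycan list was -0.26 for names with 1 row and -0.71 where mock libraries were within 1.5-fold. Matrix proteases and inhibitors had 3 lower and 2 higher of 20 (median -0.11), integrins 2 lower of 10 (median -0.06), and cytokines and chemokines 3 lower and 1 higher of 22 (median -0.35, or -0.23 with no minimum level). The p53 targets had 1 higher of 21, Gadd45a, with a median of -0.03 that was 0.03 under upper-quartile scaling, and the cell cycle inhibitors 1 lower of 15, Cdkn2c (median -0.13). Genes of neurons and neurites had 2 lower and 3 higher of 12 (median 0.57), and the median was 0.58 in mock. The 4OHT median of the neuronal list was 0.05 with no minimum level and -0.04 where mock libraries were within 1.5-fold.

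Of the 79 genes higher in Mll3/4SET with 4OHT whose mock libraries differed by less than 1.5-fold on the log2(RPKM + 1) scale, 3 that are not amino acid response genes are given here; on that scale weak levels stand closer together than by RPKM. Samd5, a gene of a SAM domain protein, was at 0.929, 3.73, 1.73 and 15.0 RPKM, 4.03-fold higher (3.47 to 4.71). Eya4, a transcriptional coactivator and phosphatase, was at 1.35, 3.49, 2.27 and 12.0 RPKM, 3.45-fold higher (3.05 to 3.92). Il1rl1, the receptor of interleukin 33, was at 4.97, 15.6, 4.22 and 38.9 RPKM, 2.49-fold higher (2.32 to 2.68). For all 3 both 4OHT libraries lay above both mock libraries, and Mll3/4SET 4OHT was the highest.

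Other genes separated the lines in both pairs of libraries. Among genes for which each pair had a library at 10 RPKM or more, 72 were lower and 26 were higher in Mll3/4SET in both pairs. They are part of the 141 lower and 51 higher genes shared at the minimum of 1 RPKM. In the 4OHT pair 5873 genes reached 10 RPKM. How many did so in both pairs is not given here, so the 72 and 26 carry no share. Ifi202b, an interferon-induced gene, was at 0.103, 0, 53.6 and 53.5 RPKM; with 0 and 2079 reads in the 4OHT libraries it was at least 736-fold higher at the floor of 3 reads. Gbp2b, listed as Gbp1, a guanylate-binding protein gene, was at 1.12, 0.724, 17.4 and 16.9 RPKM, 23.4-fold higher (17.4 to 32.0). Ifi202b belongs to a family of close copies, so its count is uncertain. Col3a1, a fibrillar collagen, was at 482.0, 731.4, 1636 and 2294 RPKM, 3.14-fold higher (3.11 to 3.16), with differences of 1.65 and, in mock, 1.76. In these 3 genes both Mll3/4SET libraries stood above both LSL-K4M libraries. Interferon-induced genes as a list had 1 lower and none higher of 30 with 4OHT, against 3.98% and 1.68% of all measured genes.

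Mitosis genes differed more in mock than with 4OHT. All 29 measured genes were lower in the Mll3/4SET mock library (median -1.49), and 6 of 29 were lower with 4OHT (median -0.57), among them Plk1, a kinase of mitosis, at 13.9, 16.0, 2.90 and 6.24 RPKM. DNA replication genes had 1 lower of 29 with 4OHT (median -0.20, or 0.06 where mock libraries were within 1.5-fold) and 2 in mock (median -0.63). The lower shares over all measured genes were 3.98% with 4OHT and 3.23% in mock. The summed levels of the mitosis list were 514.3, 475.0, 164.1 and 282.7 RPKM, and whether cell division bears on the other gene groups was not tested.

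No gene of the targeted pathway was called between the 4OHT libraries. Of all measured genes 5.66% were called in either direction, so lists of this size can hold none by their size alone. Of 16 H3K4 methyltransferases and complex subunits none reached 2-fold (median 0.13), nor did any of 15 demethylases and coactivators (median 0.18), 22 Polycomb genes (median 0.09) or 22 housekeeping genes (median -0.08). Kmt2c, listed as Mll3, was at 4.09 and 5.46 RPKM, and Kmt2d, the gene of MLL4, listed as Mll2, at 10.2 and 12.2 RPKM. The 10 genes of H3.3 and its chaperones had a median of -0.03, which was 0.02 under upper-quartile scaling; H3f3b was at 162.0 and 132.3 RPKM. None of 24 Hox genes was called (median -0.06).

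Markers of other cell types were low. With 4OHT 4 of 23 skeletal muscle, 3 of 15 macrophage and leukocyte, and 3 of 11 endothelial markers were measured. Their summed levels were 21.0 and 11.2 RPKM for muscle, 7.41 and 4.30 RPKM for macrophages and leukocytes, and 8.39 and 10.2 RPKM for endothelium in LSL-K4M and Mll3/4SET. The 7 adipocyte markers used to check the label summed to 1701 RPKM in LSL-K4M 4OHT and 68.8 RPKM in Mll3/4SET 4OHT, against 6236 and 7028 RPKM in mock, so that the label of mature adipocytes rests on low marker levels in the Mll3/4SET 4OHT library.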

How the data were processed

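RNA-seq of 4 libraries was used, 1 per line and treatment, grouped by their labels. The submitters' processing notes name the build mm9 and the tool SICER; the aligner, the counter and any use of strand are not given in the sources used here. Per the file headers, the authors deposited for each line a table of read counts and RPKM per RefSeq transcript, the authors' ratio of mock to 4OHT, and another column headed as expressed; the last 2 columns were not used. RPKM per read differed by a factor of 1.06 between the 4OHT libraries. The tables held 0 sample columns that could not be placed.

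The tables, joined by transcript and name, hold 29082 transcripts under 22835 names. For the 3906 names with several rows, 1 row was kept, that of highest mean RPKM. X- and Y-linked names (1026) were left out by a RefSeq gene list of GRCm38.p6, which matched 99.7% of names; as that is another build, it gave no gene coordinates. Differences used a pseudocount of 1 RPKM, a minimum of 1 RPKM in the higher library and a limit of 2-fold. Ratios carry exact conditional binomial 95% intervals; reads without molecular identifiers are not independent molecules, so intervals and the floor of 3 reads cover counting error only. With 1 library per side there was no count test, and edgeR 4.0.16 (R 4.3.3) served for TMM factors alone; the rest used Python 3.11.15, pandas 2.3.3, scipy 1.17.1 and matplotlib 3.10.9. The size rule was tried on simulated counts with counting error alone. It called 39 of 50 genes set 3-fold lower and 48 of 50 set 3-fold higher. Of 11216 unchanged genes it called 22.

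The comparison, the 46 lists, the 6 promoter motifs and the naming rule were chosen with earlier results of these data known. The rule takes, at 10 RPKM or more in the higher 4OHT library, the 15 lowest and 15 highest differences, both over all genes and where the mock libraries differed by less than 1.5-fold; at most 4 genes per list, those that differ most; genes called in opposite directions in mock and 4OHT; and fixed regulators and histone genes. Other list members are named for their role, and 2 genes under the rule are not reported here. Alternatives were other pseudocounts, minimums and scalings, another choice of transcript, names with 1 row, genes of known chromosome, and genes with like mock libraries.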

Additional observations from a re-analysis of the deposited data

Results flagged for a closer look

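In 7 genes the difference between the lines had opposite directions in the mock and the 4OHT libraries, at 2-fold or more in each. All 7 were higher in Mll3/4SET mock and lower in Mll3/4SET 4OHT. Each pair holds 1 library per line, so this contrast was not tested; 2 further small RNA or predicted genes are left out.

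Pck1, the enzyme that opens glycerol and glucose synthesis, had log2 differences of 2.12 in mock and -1.20 with 4OHT, at 1.43, 1.46, 9.58 and 0.0705 RPKM in LSL-K4M mock, LSL-K4M 4OHT, Mll3/4SET mock and Mll3/4SET 4OHT. Gpat3, listed as Agpat9, an enzyme of triglyceride synthesis, had 1.51 and -1.30, at 28.8, 8.50, 83.6 and 2.85 RPKM. Trarg1, listed as Tusc5, a fat cell protein of glucose transporter traffic, had 1.32 and -1.62, at 9.89, 2.55, 26.2 and 0.157 RPKM. In these 3 lipid or glucose genes the highest and the lowest level were both in the Mll3/4SET line.

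Egln3, an oxygen sensor induced by hypoxia, had 1.34 in mock and -1.26 with 4OHT. Stc1, a secreted glycoprotein, had 1.21 and -1.07. Clec3b, the gene of tetranectin, had 1.28 and -1.35, and Fam110c had 1.49 and -1.21.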

How the results depend on the processing

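No paired analysis was possible because each group holds 1 library, and for the same reason no library could be left out and no DESeq2 or edgeR test was run. No called difference of a named gene changed direction under the alternatives run. With a pseudocount of 0.1 RPKM the calls between the 4OHT libraries were 721 lower and 332 higher, and between the mock libraries 605 and 348; with 0.001 RPKM they were 747 and 362, and 639 and 380. A minimum of 5 RPKM left 129 higher genes with 4OHT, and keeping genes with mock libraries under 1.5-fold left 214 lower and 79 higher; both settings measure fewer genes. The other 31 counts stayed within 1.5 times. Scaling by median ratios, upper quartiles or TMM gave 456, 431 and 452 lower and 201, 217 and 208 higher genes with 4OHT. Of the values of named genes under the alternatives, 2195 kept their direction and their side of the limit, 9 lost the call (those of Ldha, Cs, Myl9 and Acta1 under other scalings) and 25 gained it. A smaller pseudocount weighs most on weak levels: the log2 difference of Zbtb16 was -0.89 and, with 0.1 RPKM, -2.61, while genes close to the limit, such as Cyc1, gained a call with little movement. Some list medians changed sign or moved by over 1.5 times, mainly with no minimum level, with names of 1 row or where mock libraries were alike; the larger moves are given with the lists whose medians are printed.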

Other observations

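Besides TGATGNAA, 5 other motifs were searched in the promoter windows of the amino acid response, adipocyte and cholesterol synthesis lists. Of 21 cholesterol synthesis genes 13 had a window, and 4 of these windows held CACGTG, the E-box (30.8%, against 8.09% of all genes). None of the 13 held TCACNCCAC, the sterol regulatory element, which 1.44% of all windows held. In adipocyte markers 5 of 22 windows held TTGCNNAA, a C/EBP motif (22.7%, against 12.2% of all genes). None of the 22 held a perfect direct repeat of the kind that PPARγ and its partner bind, which 0.0481% of all windows held. These are counts of letters in windows near the start and were not tested.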
